A study of Homo sapiens with 12 samples.

Results

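The microRNAs hsa-miR-99a, hsa-miR-99b and hsa-miR-100 form the miR-99/100 family, and hsa-miR-125a-5p and hsa-miR-125b are the guide strands of the miR-125 family. These 5 of the 851 human microRNA names on the array were taken by name alone, because their genes lie in paralogous clusters that also hold a let-7 gene. They were followed in SUM159, a human triple-negative breast cancer cell line. All cells carried an integrated pLKO.1 lentiviral vector, which expressed either a scrambled shRNA (control shRNA cells) or an shRNA that targets Dicer, an RNase releasing mature microRNAs from their hairpin precursors (Dicer shRNA cells). Both lines were given PBS as the vehicle or 0.5 mM metformin, a drug for type 2 diabetes, for 24 h. This gave 4 groups of 3 biological replicates, 12 samples in all, each on its own 1-colour Agilent microRNA array. Whether a line is a clone or a pool is not given in the sources used here.

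The layout limits what the groups can show. Slide 1 held all vehicle arrays and slide 2 all metformin arrays, so the effects of drug and slide cannot be told apart. The Dicer shRNA arrays followed the control shRNA arrays in position on each slide, and the effects of line and position likewise cannot be told apart. The titles, descriptions and characteristics agree on the groups, but the source names call the control shRNA arrays with metformin untreated and the Dicer shRNA arrays with metformin control and treated. The direction of every comparison that uses a metformin group, the interaction included, therefore rests on the titles: exchanging the lines under metformin would turn the knockdown change there. No probe on the array reports the Dicer mRNA, and the knockdown was therefore not checked. Of markers of breast cell state, the basal microRNAs miR-221, miR-222 and miR-146a were detected on all 3 control shRNA arrays with vehicle, while of 6 epithelial markers only miR-205 was detected and the miR-200 family was not. Of 6 blood markers, 0 were detected in control shRNA cells with vehicle and 2 (miR-486-5p and miR-223) in control shRNA cells with metformin. Of 4 muscle markers, 2 (miR-133a and miR-133b) were detected on all control shRNA arrays with metformin and 0 on all control shRNA arrays with vehicle. The summed scaled signal of the 3 basal microRNAs was 543 to 579 in control shRNA cells and 232 to 279 in Dicer shRNA cells with vehicle, and 22.96 to 38.4 and 123 to 154 in the same lines with metformin, the order of groups that miR-99b, miR-100 and miR-125b also had. That of miR-205 was 620 to 645, 123 to 129, 106 to 134 and 76.8 to 105 in these 4 groups. The summed scaled signal of the blood markers was 0 on every array outside control shRNA cells with metformin, where it was 15.2 to 20.4. That of the muscle markers was 24.9 to 29.9 in this group, 0 to 4.41 in control shRNA cells with vehicle, 0 to 6.52 in Dicer shRNA cells with vehicle and 7.74 to 21.1 in Dicer shRNA cells with metformin. Their part in the results that follow was not tested. The liver and neuron markers were not detected. In RNA from whole cultures, a lower level in every cell and a loss from some cells cannot be told apart.

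MicroRNAs of both families pair with target mRNAs mainly through their seed, the bases near the 5′ end. The miR-99/100 family is known for repressing MTOR and IGF1R, parts of the growth factor pathway, and miR-125 for repressing LIN28, which itself blocks let-7 maturation, and the growth factor receptor ERBB2. The clusters are known to be transcribed as long precursors, so that members of the 2 families and a let-7 microRNA can come from 1 transcript.

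The sequences are shown because seed, paralog and cluster define how the 5 microRNAs relate to each other. All 5 names matched RefSeq (GRCh38.p14), and the capitals mark the seed, bases 2 to 8 from the 5′ end. The mature strands read 5′ to 3′ as follows.
hsa-miR-99a: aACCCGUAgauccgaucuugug
hsa-miR-99b: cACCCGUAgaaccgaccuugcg
hsa-miR-100: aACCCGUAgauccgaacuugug
hsa-miR-125a-5p: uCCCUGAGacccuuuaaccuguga
hsa-miR-125b: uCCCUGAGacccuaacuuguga

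The 3 members of the miR-99/100 family have the seed ACCCGUA, which no other mature human microRNA in the RefSeq table holds. miR-99a differs from miR-100 at 1 of 22 bases (A16U, with miR-100 as the reference and positions counted from 1 at the 5′ end). miR-99b differs from miR-100 at 4 bases (A1C, U11A, A16C and U21C). The miR-125 members have the seed CCCUGAG, and miR-125a-5p (24 bases) and miR-125b (22 bases) share their first 13 and last 5 bases. Probe sequences were not used here, so how far a probe for 1 member also binds its near-identical relative was not tested. No other name on the array held the same signal as a member on all 12 arrays.

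The genes lie in 3 clusters. On chromosome 11, miR-100 (chr11:122152275-122152296) and miR-125b from the gene MIR125B1 (chr11:122099809-122099830) flank let-7a from MIRLET7A2 (chr11:122146568-122146589), all on the minus strand within the long noncoding RNA gene MIR100HG, over 52.6 kb. On chromosome 21, miR-99a (chr21:16539101-16539122), let-7c (chr21:16539838-16539859) and miR-125b from MIR125B2 (chr21:16590253-16590274) lie on the plus strand within the long noncoding RNA gene MIR99AHG, over 51.2 kb. On chromosome 19, miR-99b (chr19:51692618-51692639), let-7e (chr19:51692793-51692814) and miR-125a-5p (chr19:51693268-51693291) lie within 0.728 kb on the plus strand, inside the protein-coding gene SPACA6 and the noncoding SPACA6-AS1. Both miR-125b genes give the same mature sequence, so the array cannot separate the chromosome 11 from the chromosome 21 copy.

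The let-7 partners are shown beside them because they come from the same clusters, and the opposite arm of the miR-125a hairpin because it was the only passenger strand of the 5 microRNAs that could be tested. Capitals again mark bases 2 to 8.
let-7a: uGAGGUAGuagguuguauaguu
let-7c: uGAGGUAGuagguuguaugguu
let-7e: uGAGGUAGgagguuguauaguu
miR-125a-3p: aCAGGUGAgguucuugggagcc
With let-7a as the reference, let-7c has A19G and let-7e has U9G. All 3 share the let-7 seed GAGGUAG. let-7a also has genes on chromosomes 9 and 22 outside these clusters, which give the same mature sequence.

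Levels are given as the total gene signal of the array, a fluorescence intensity on a linear scale, after each array was scaled to the 75th percentile of the 98 human microRNAs detected on all 12 arrays. Signals of different probes are not comparable, so each microRNA is compared only with itself across groups. Undetected microRNAs were set to a floor of 3.01, or 1.59 on the log2 scale. All 5 microRNAs were detected on at least 1 array and 2 of them, miR-99b and miR-100, on all 12. All 5 also entered the test, which took the 208 microRNAs detected on every array of at least 1 group. The error that the files state for a detected member had a median of 9.33% of its signal (7.21% to 30.5%).

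All 5 microRNAs gave their highest signals in control shRNA cells with vehicle. miR-99b, miR-100 and miR-125b then stood in the same order of groups, with Dicer shRNA cells given vehicle second, then Dicer shRNA with metformin, and control shRNA with metformin lowest. Each neighbouring pair of groups in that order passed the test for these 3 microRNAs. miR-99a and miR-125a-5p were not detected on any metformin array. miR-99a was detected on every array of control shRNA cells with vehicle alone and entered the test only through that group, so that it had to come out lower elsewhere. It is given below without a p, and its place in each count was set by the filter. miR-125a-5p entered the test only through the vehicle groups, where it was high. In comparisons of metformin with vehicle it is given without a p, and its place in those counts was likewise set by the filter.

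**Figure D1:**
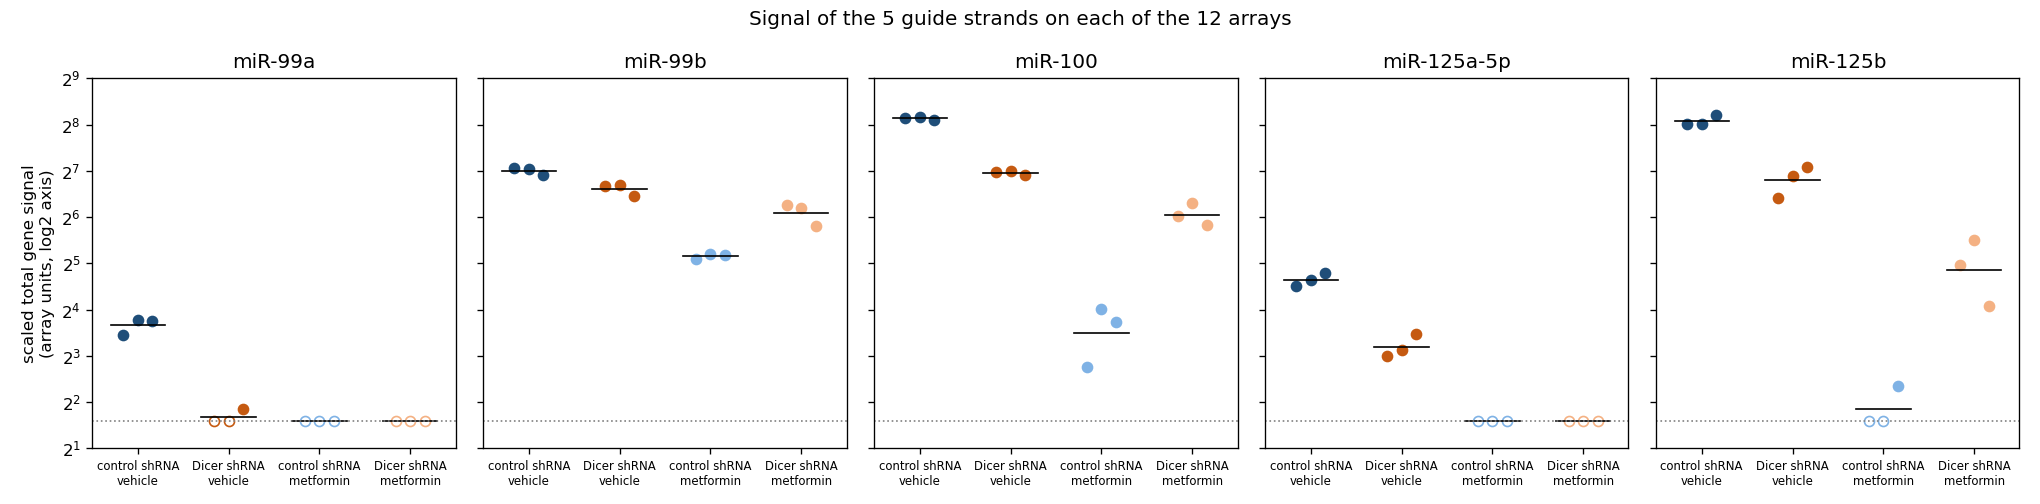
Scaled total gene signal (array units, log2 axis) of the 5 microRNAs on each array, with 3 arrays per group as points and the mean of log2 values as a line. Open circles are arrays on which the microRNA was not detected, drawn at the floor of 3.01 (dotted line). The control shRNA arrays with vehicle are highest in every panel, and for miR-99b, miR-100 and miR-125b the control shRNA arrays with metformin are lowest.

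The first comparison asked how the microRNAs differed between Dicer shRNA and control shRNA cells given vehicle, within slide 1. All 5 were lower in Dicer shRNA cells. The falls ranged from 1.31-fold for miR-99b to 2.72-fold for miR-125a-5p among the 4 members detected on all 6 arrays, and the log2 change of the clustered let-7c was larger in size than that of any of these 4. The 4 members detected on all 6 arrays had an adjusted p under 0.05 in limma (adjusted by Benjamini-Hochberg over all 208 microRNAs). The same call was made as lower for 38.0% of all microRNAs tested. miR-99a was also called, but its call was set by the filter. The members' median log2 change was -1.29, beside 0.00 over all tested. The share of all microRNAs called lower depended on the scaling and ran from 25.5% after quantile normalization to 61.5% after scaling to viral probes, where the median over all tested was -0.98.

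In the miR-99/100 family, miR-100 gave signals of 285, 289 and 275 in control shRNA cells (283 ± 6.92, SD, n = 3) and of 127, 127 and 121 in Dicer shRNA cells (125 ± 3.41, SD, n = 3). The groups did not overlap, and each Dicer shRNA array was below the control arrays by far more than their spread. Its log2 change was -1.18 ± 0.27 (SE, adjusted p = 0.00298). miR-99b, with the same seed, gave 133, 131 and 120 in control shRNA cells (128 ± 7.18, SD, n = 3) and 102, 104 and 88.0 in Dicer shRNA cells (97.8 ± 8.57, SD, n = 3). These groups did not overlap either but lay closer together. The log2 change was -0.39 ± 0.13 (adjusted p = 0.0221), the smallest of the 5, and this call was lost after quantile normalization (-0.16, adjusted p = 0.432), without a filter on dim names (adjusted p = 0.0882), and without replicate 1 (adjusted p = 0.0612) or 2 (adjusted p = 0.0552) of the control shRNA group or replicate 3 of the Dicer shRNA group (adjusted p = 0.0758). miR-99a, 1 base from miR-100, gave 10.9, 13.7 and 13.6 in control shRNA cells (12.7 ± 1.55, SD, n = 3) and was detected on 1 of 3 Dicer shRNA arrays, at 3.61. The fitted log2 change of -1.99 rests on the floor for the other arrays.

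In the miR-125 family, miR-125b gave 259, 258 and 298 in control shRNA cells (272 ± 22.7, SD, n = 3) and 85.0, 119 and 136 in Dicer shRNA cells (113 ± 26.1, SD, n = 3). Replicate 1 was the lowest of the Dicer shRNA arrays, and the groups did not overlap. The log2 change was -1.29 ± 0.34 (adjusted p = 0.00783), and the call was lost after quantile normalization (-0.76, adjusted p = 0.104) and without a filter on dim names (adjusted p = 0.0676). miR-125a-5p gave 22.6, 24.9 and 27.7 in control shRNA cells (25.1 ± 2.55, SD, n = 3) and 8.03, 8.74 and 11.04 in Dicer shRNA cells (9.27 ± 1.57, SD, n = 3). All Dicer shRNA arrays lay below all control arrays. The log2 change was -1.45 ± 0.12 (adjusted p = 5.03e-06). This SE pools all 4 groups, and both metformin groups lay at the floor without spread. With only the 2 vehicle groups fitted in limma, the adjusted p was 0.00169.

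Among the let-7 partners, let-7c gave 97.1, 104 and 132 in control shRNA cells (111 ± 18.5, SD, n = 3) and 15.1, 24.5 and 33.5 in Dicer shRNA cells (24.4 ± 9.21, SD, n = 3), a log2 change of -2.25 ± 0.24 (adjusted p = 2.91e-05). That SE also pools control shRNA cells with metformin, where let-7c lay at the floor without spread. With only the 2 vehicle groups fitted in limma, its adjusted p was 0.00534. let-7a gave 64.1, 67.3 and 105 in control shRNA cells and was detected on 2 of 3 Dicer shRNA arrays, at 8.15 and 11.1. Its log2 change of -3.56 is limited by the floor, and like miR-99a it entered the test only through the group in which it was high. let-7e was detected only on 2 control shRNA arrays with vehicle, at 3.31 and 11.3, and was not tested. Of the 9 listed let-7 microRNAs 8 were detected on some array and 6 were tested. All 6 were called lower, beside 38.0% of all microRNAs tested, with a median log2 change of -2.66. let-7a, let-7f, let-7g and let-7i, with Dicer shRNA arrays at the floor, entered the test only through control shRNA cells with vehicle. They had to come out lower, and the median rests on them. Only let-7b and let-7c were detected on all arrays of both groups.

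Differences between a pair of microRNAs on the same array do not depend on the factor by which the array is scaled, though quantile normalization can change them. They were compared with exact permutation tests of 3 against 3 arrays, 11 comparisons in all, none of which can give a p below 0.1. The change of miR-100 minus that of miR-99b was -0.79 ± 0.06 (SE, n = 3 per group, two-sided exact permutation p = 0.1) without overlap between the groups. The change of miR-125b minus that of miR-125a-5p was 0.16 ± 0.11 (exact permutation p = 0.3) with overlapping groups, and it was -0.47 when 16 was added to every signal instead of a floor. For the chromosome 11 neighbours miR-125b and miR-100 the difference was -0.11 ± 0.24 (exact permutation p = 0.9), again with overlap. For the chromosome 19 neighbours, the change of miR-99b minus that of miR-125a-5p was 1.06 ± 0.25 without overlap (exact permutation p = 0.1), or 0.36 with the offset. The change of miR-125b minus that of its partner let-7c was 0.96 ± 0.15 without overlap (exact permutation p = 0.1), or 0.50 with the offset. After Benjamini-Hochberg adjustment over the 11 comparisons the lowest exact p became 0.138.

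Control features moved in the same comparison. The 4 features named hur that were detected on all arrays, which are not microRNAs, had a median log2 change of -0.81 (all 4 below 0), and the 10 viral probes with signal on every array had 0.87 (all 10 above 0). Their part in the members' changes was not tested. After scaling to the viral probes the log2 change was -1.59 for miR-99b, -2.38 for miR-100 and -2.48 for miR-125b. After quantile normalization it was -0.16, -0.84 and -0.76 in the same order. The sizes therefore depended strongly on the scaling, while the sign did not turn in any scaling run.

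The same lines were then compared under metformin, within slide 2. There the 3 members that were detected were higher in the arrays titled Dicer shRNA, the opposite direction, and miR-99a and miR-125a-5p could not be compared. Of all 208 microRNAs, 13.9% were called higher, and 3 of the 5 members were, all 3 with non-overlapping groups. The members' median log2 change was 0.92, counting miR-99a and miR-125a-5p at the floor, beside -0.24 over all tested.

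miR-100 gave 6.76, 16.2 and 13.3 in control shRNA cells with metformin (12.1 ± 4.83, SD, n = 3) and 65.1, 78.7 and 57.1 in Dicer shRNA cells with metformin (66.9 ± 10.9, SD, n = 3). The lowest Dicer shRNA array was well above the highest control array, and the log2 change was 2.55 ± 0.27, or 5.85-fold (adjusted p = 3.33e-05). miR-99b gave 34.0, 37.0 and 36.2 in control shRNA cells (35.7 ± 1.58, SD, n = 3) and 76.2, 73.0 and 55.8 in Dicer shRNA cells (68.3 ± 11.01, SD, n = 3), a log2 change of 0.92 ± 0.13 (adjusted p = 0.000203). The increase of miR-100 minus that of miR-99b was 1.63 ± 0.36 on the same arrays, without overlap (two-sided exact permutation p = 0.1), or 0.87 with the offset.

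miR-125b was detected on 1 of 3 control shRNA arrays with metformin, at 5.11, and gave 31.2, 45.3 and 16.96 in Dicer shRNA cells with metformin (31.2 ± 14.2, SD, n = 3). Even the lowest Dicer shRNA array stood above every control array. The log2 change of 3.01 ± 0.34 (adjusted p = 5.96e-05) is limited by the floor, and ran from 1.38 with the offset to 3.67 over the other settings. The calls of miR-99b, miR-100 and miR-125b held in all alternatives in which each could be tested. let-7c was not detected in control shRNA cells with metformin and gave 6.90, 8.19 and 7.23 in Dicer shRNA cells (7.44 ± 0.672, SD, n = 3), at least 2.47-fold higher under the main scaling (adjusted p = 0.00154). After viral scaling the log2 change was 0.94 and lost its call (adjusted p = 0.0813), and it was 0.55 with the offset. let-7a was detected in neither group. Here the hur features had a median log2 change of 1.95 (all 4 above 0) and the viral probes -0.49 (9 of 10 below 0), and their part was not tested.

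**Figure D2:**
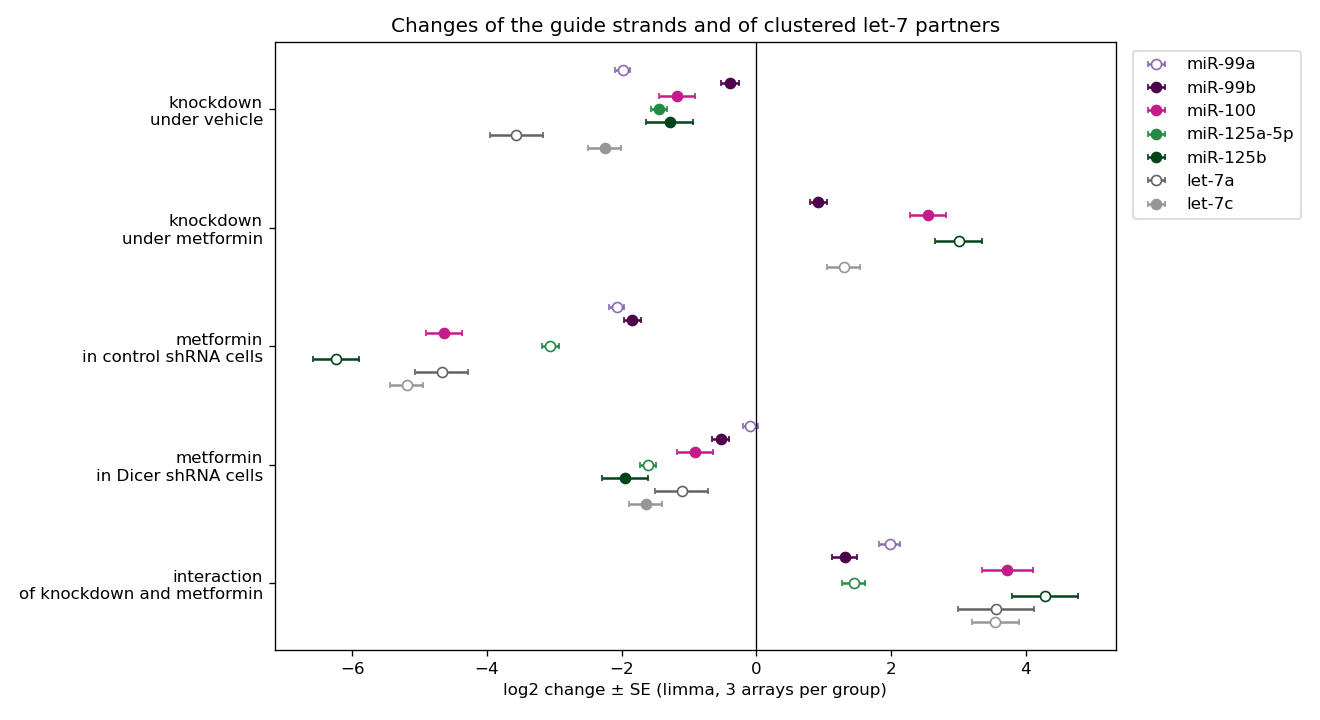
Log2 change ± SE (limma, 3 arrays per group) of the 5 microRNAs and the clustered let-7a and let-7c, by comparison, with the 4 comparisons between groups and their interaction on the vertical axis. Open symbols mark values that rest on the floor in at least 1 array, and microRNAs detected in neither group are left out. Dicer shRNA minus control shRNA lies below 0 with vehicle and above 0 with metformin for miR-99b (-0.39 and 0.92), miR-100 (-1.18 and 2.55) and miR-125b (-1.29 and 3.01).

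The arrays of control shRNA cells with metformin were next set against those with vehicle. All 5 members were lower on the metformin arrays, and the miR-125 guide strands were lower by 75.6-fold for miR-125b, with the floor on 2 of 3 arrays, and by at least 8.31-fold for miR-125a-5p. Lower calls were made for 40.4% of all microRNAs tested, and for 56.3% after scaling to viral probes. The members' median change of -3.05 was the value of miR-125a-5p, which rests on the floor with metformin. The median over all tested was 0.52, or -0.91 after scaling to viral probes.

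miR-100 went from 283 ± 6.92 to 12.1 ± 4.83 (SD, n = 3 each), a log2 change of -4.64 ± 0.27 or 25.0-fold (adjusted p = 5.47e-08), and it was detected on all 6 arrays. miR-99b went from 128 ± 7.18 to 35.7 ± 1.58 (SD, n = 3 each), a log2 change of -1.84 ± 0.13 or 3.58-fold (adjusted p = 2.54e-07). The change of miR-100 minus that of its seed mate miR-99b was -2.80 ± 0.35 on the same arrays, without overlap (two-sided exact permutation p = 0.1). miR-100 gave only 6.76, 16.2 and 13.3 with metformin, near the floor of 3.01. The size of this difference therefore depends on how dim signals are handled. miR-125b had a log2 change of -6.24 ± 0.34 (adjusted p = 4.08e-08), and because 2 of 3 metformin arrays lay at the floor it ran from -7.35 to -4.03 over the other settings. miR-99a, at 12.7 ± 1.55 with vehicle (SD, n = 3) and undetected with metformin, was at least 4.21-fold lower by the way it was selected. The let-7 partners were undetected with metformin as well. let-7a was lower by at least 25.5-fold, and for let-7c the bound was 36.5-fold. The calls of miR-99b, miR-100 and miR-125b held in every alternative in which the member was tested. The hur features fell with them, with a median log2 change of -3.84 (all 4 below 0), and the viral probes rose, with 1.38 (all 10 above 0), and the part of either was not tested. After scaling to the viral probes the log2 change was -3.39 for miR-99b and -6.19 for miR-100, the largest in size over the other settings. The smallest in size over those settings were -1.01 for miR-99b and -3.43 for miR-100.

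In Dicer shRNA cells the metformin arrays differed from the vehicle arrays by less. Of the 5 members 4 were called lower, beside 18.3% of all microRNAs tested, and their median log2 change was -0.91 beside 0.00. miR-125b went from 113 ± 26.1 to 31.2 ± 14.2 (SD, n = 3 each) without overlap, a log2 change of -1.95 ± 0.34 (adjusted p = 0.0022), and missed the threshold when only these 2 groups were fitted (adjusted p = 0.058). miR-125a-5p, undetected with metformin, was at least 3.05-fold lower. It entered the test only through the vehicle groups, so its place in this count was set by the filter. miR-99a, detected on 1 vehicle array and no metformin array, had no call.

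Within the miR-99/100 family the 2 remaining calls were fragile. miR-100 went from 125 ± 3.41 to 66.9 ± 10.9 (SD, n = 3 each), a log2 change of -0.91 ± 0.27 (adjusted p = 0.0326). It lost the call after quantile normalization (-0.52, adjusted p = 0.293) and viral scaling (adjusted p = 0.0673), under either wider filter on dim names (adjusted p = 0.0544 and 0.234), with the deposited series matrix (-0.37, adjusted p = 0.354), and in 6 of the 12 fits with 1 array left out. Those 6 left out replicate 2 of control shRNA with vehicle (adjusted p = 0.0534), replicate 1 (0.0518), 2 (0.0863) or 3 (0.0804) of Dicer shRNA with vehicle, or replicate 1 (0.0806) or 3 (0.122) of Dicer shRNA with metformin. miR-99b went from 97.8 ± 8.57 to 68.3 ± 11.01 (SD, n = 3 each), a log2 change of -0.53 ± 0.13 (adjusted p = 0.0135). Its call was lost after quantile normalization (adjusted p = 0.685), viral scaling (0.121), with no filter (0.0696), with only the groups compared (0.103) and without replicate 2 of Dicer shRNA with vehicle (0.0591), and the series matrix gave 0.06 (adjusted p = 0.908). Both microRNAs nevertheless had non-overlapping groups.

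On the same arrays the change of miR-125b minus that of miR-100 was -1.04 ± 0.36, without overlap (two-sided exact permutation p = 0.1), and the change of miR-100 minus that of miR-99b was -0.38 ± 0.11, also without overlap (exact permutation p = 0.1). miR-125b and its chromosome 21 partner let-7c differed by -0.31 ± 0.40 with overlap (exact permutation p = 0.6). let-7c itself had a log2 change of -1.64 ± 0.24 (adjusted p = 0.000906), from 24.4 ± 9.21 to 7.44 ± 0.672 (SD, n = 3 each). Its call was lost after quantile normalization (-1.08, adjusted p = 0.0588) and with only the groups compared (adjusted p = 0.0503). The median log2 change was -0.999 for the hur features (all 4 below 0) and 0.34 for the viral probes (8 of 10 above 0). Their part was not tested.

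The interaction term tests whether the knockdown change under metformin differed from that with vehicle, which is the same as asking whether the metformin change differed between the lines. All 5 members passed with a positive value, as did 37.0% of all microRNAs tested (54.8% after scaling to viral probes), and 76.4% passed in either direction. The sign rests on the titles of the metformin groups, as given above. It was 4.29 ± 0.49 on the log2 scale for miR-125b (adjusted p = 3.03e-05), 3.73 ± 0.38 for miR-100 (adjusted p = 1.31e-05) and 1.31 ± 0.18 for miR-99b (adjusted p = 0.000111). Over the other settings it ran from 2.55 to 5.38 for miR-125b, from 2.65 to 5.26 for miR-100 and from 0.89 to 2.85 for miR-99b, and the value of miR-125b is limited by the floor on 2 control shRNA arrays with metformin. The values of miR-99a (1.99) and miR-125a-5p (1.45 ± 0.17) are no more than their change with vehicle turned in sign, because both metformin groups lay at the floor. The members' median of 1.99 was the value of miR-99a, and so was set by the filter and the floor. The median over all tested was -0.53, or 0.94 after scaling to viral probes.

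**Figure D3:**
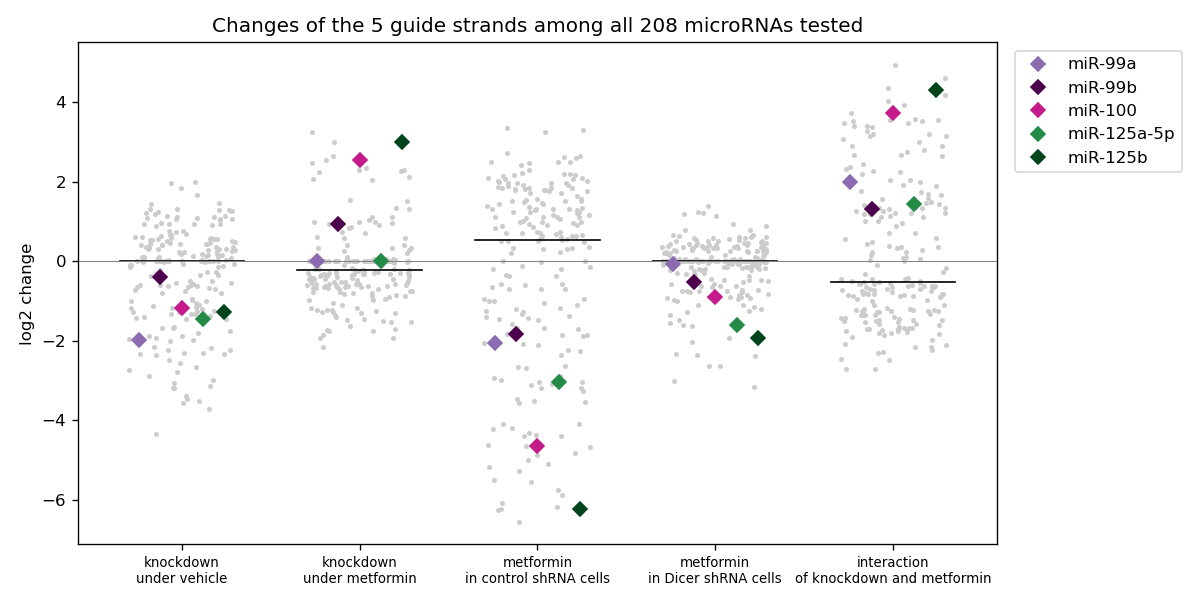
Log2 change (vertical axis) of the 5 microRNAs (coloured diamonds) among all 208 microRNAs tested (grey points, spread sideways at random), by comparison, with a black line at the median of all tested. miR-100 and miR-125b lie above the median of -0.24 under metformin (2.55 and 3.01) and below that of 0.52 for metformin in control shRNA cells (-4.64 and -6.24), with the miR-125b values limited by the floor, while miR-99a and miR-125a-5p sit at 0 under metformin because neither line detected them there.

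Averaging the knockdown over both slides mixes changes of opposite sign. miR-99b (0.27 ± 0.09, adjusted p = 0.0321), miR-100 (0.68 ± 0.19, adjusted p = 0.0129) and miR-125b (0.86 ± 0.24, adjusted p = 0.0144) were called higher, beside 15.4% of all microRNAs tested. miR-99a and miR-125a-5p were called lower, with changes of -0.99 and -0.72, beside 35.6% of all. Since these last 2 were undetected on slide 2, their averages are set by the floor. None of the 3 higher calls held after scaling to the median or to viral probes, and miR-99b turned to -0.14 and -0.17 there. The miR-99b call held in 4 of 12 other settings and in 5 of the 12 fits with 1 array left out. That of miR-125b held in 6 of 11 other settings and was lost with the offset (0.10, adjusted p = 0.642), without a filter (adjusted p = 0.114) and with the series matrix (adjusted p = 0.0879). That of miR-100 held in 9 of 12 and was also lost without a filter (adjusted p = 0.1). After scaling to the median 1.92% of all microRNAs were called higher and 62.0% lower.

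**Figure D4:**
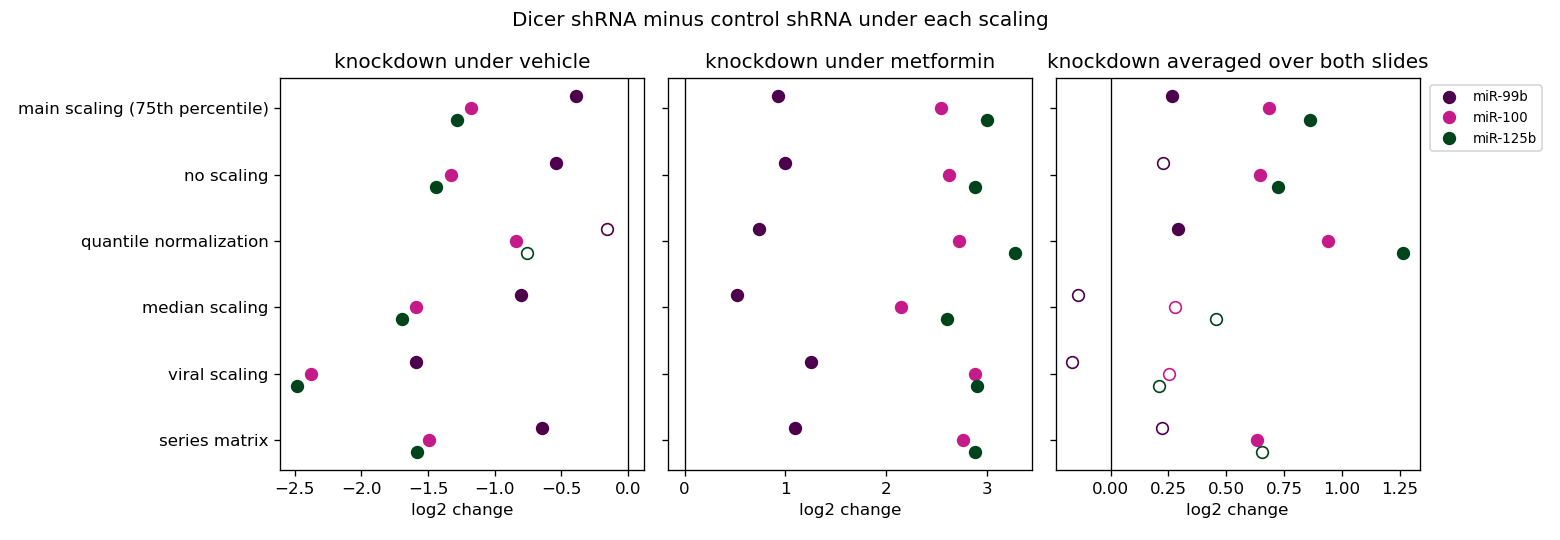
Log2 change of miR-99b, miR-100 and miR-125b, Dicer shRNA minus control shRNA, under each scaling and with the deposited series matrix, for vehicle, for metformin and averaged over both slides (each panel has its own horizontal axis). Filled symbols passed an adjusted p of 0.05. The signs with vehicle (below 0) and with metformin (above 0) were the same under every scaling shown, while the average of miR-99b fell to -0.14 and -0.17 after median and viral scaling.

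The opposite arm of the miR-125a hairpin moved the other way under the main scaling, though with vehicle not after viral scaling. Of all microRNAs tested, the main scaling called 21.6% higher in Dicer shRNA cells with vehicle. It called 47.6% higher for metformin in control shRNA cells, and 25% lower in Dicer shRNA cells under metformin. miR-125a-3p gave 36.6, 32.8 and 22.8 on the vehicle arrays of control shRNA cells (30.7 ± 7.12, SD, n = 3) and 67.9, 62.3 and 45.6 on those of Dicer shRNA cells (58.6 ± 11.6, SD, n = 3), a log2 change of 0.94 ± 0.19 (adjusted p = 0.00146). With metformin it gave 115, 103 and 107 in control shRNA cells (109 ± 6.21, SD, n = 3) and 72.5, 69.3 and 76.0 in Dicer shRNA cells (72.6 ± 3.38, SD, n = 3). Its group means stood in the reverse order of those of miR-99b, miR-100 and miR-125b. Its middle pair, Dicer shRNA cells with vehicle and with metformin, did not pass the test in the main fit. From vehicle to metformin miR-125a-3p rose by 1.85 ± 0.19 in control shRNA cells (adjusted p = 5.33e-06), the call being lost after viral scaling (0.30, adjusted p = 0.0944). In Dicer shRNA cells it changed by 0.33 ± 0.19 (adjusted p = 0.242), but by 0.92 with the series matrix, where it was called (adjusted p = 0.00356). The knockdown change under metformin, -0.58 ± 0.19 (adjusted p = 0.0346), lost its call after viral scaling (-0.25, adjusted p = 0.331), with no scaling (adjusted p = 0.0554), under either wider filter (adjusted p = 0.0504 and 0.21) and with the series matrix (adjusted p = 0.116). The call was also lost in 5 of the 12 fits with 1 array left out, namely without any one of the 3 control shRNA arrays with metformin (adjusted p = 0.102, 0.0586 and 0.0802) or without replicate 1 (0.0865) or 2 (0.101) of Dicer shRNA with metformin. The rise with vehicle became -0.26 (adjusted p = 0.171) after viral scaling.

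Both arms are cut from 1 hairpin, so the change of 1 arm against the other on the same array was also taken, a pair chosen after its values were seen. With vehicle the change of miR-125a-5p minus that of miR-125a-3p was -2.39 ± 0.42, without overlap (two-sided exact permutation p = 0.1), or -1.38 with the offset. Viral probes rose in the same comparison, as given above. Of the 6 passenger strands listed for the members' hairpins 3 were detected on any array, and miR-125a-3p was the only one with enough detected arrays to test. miR-99b* was detected on 1 array, at 2.14.

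**Figure D5:**
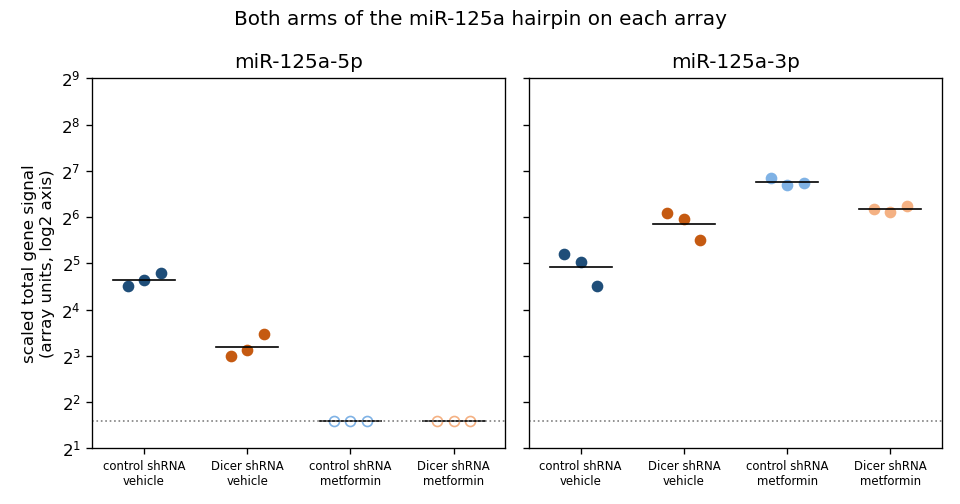
Scaled total gene signal (array units, log2 axis) of miR-125a-5p and miR-125a-3p on each array, 3 per group, with the mean of log2 values as a line and undetected arrays as open circles at the floor of 3.01 (dotted line). miR-125a-5p goes from 25.1 in control shRNA cells with vehicle to undetected with metformin, while miR-125a-3p goes from 30.7 to 109, and the levels of the 2 probes are not comparable with each other.

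Patterns were compared by the root mean square difference between the 4 group means of a pair of microRNAs, each centred on its own mean (log2 scale), over 4 groups and all 208 tested microRNAs, as a description. miR-30a (0.0918), miR-151-3p (0.119) and miR-181a (0.130) were closest to miR-99b, where the median over all tested was 1.07. miR-221 (0.102), miR-130b (0.118) and miR-25 (0.121) were closest to miR-100, with a median of 1.92. miR-130b and miR-25 were at the floor on 3 and 2 of the control shRNA arrays with metformin. miR-29a (0.215), let-7b (0.298) and miR-1246 (0.587) were closest to miR-125b, with a median of 2.55. For miR-99a and miR-125a-5p the neighbours were themselves at the floor in the metformin groups, miR-30e, miR-214 and miR-196b for miR-99a, and miR-140-3p (detected on 1 metformin array), miR-361-5p and miR-331-3p for miR-125a-5p.

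The members were not each other's closest matches. The difference between miR-100 and miR-125b was 0.679, and miR-100 ranked 7 among the microRNAs most like miR-125b. miR-99a and miR-100, with 1 base between them, differed by 1.27, with the floor limiting miR-99a. The miR-125 pair differed by 1.38 and miR-99b and miR-100 by 1.02.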

How the data were processed

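Per the file headers, each array file deposited by the authors gives every name a total gene signal (an intensity on a linear scale), an error and a detection flag. The submitters' processing notes list Agilent Feature Extraction 9.1, and how background was treated is not given in the sources used here. Undetected names hold 0.1. The series matrix, also deposited, gives 221 names as log2 values, with medians of 3.19 to 4.06 per array, and follows log2 signal in scale and direction, but its normalization and centring are unknown. The labels describe an mRNA labelling kit. Source names of the metformin groups contradict the titles, from which groups were taken, so the direction of each metformin-group comparison and of the interaction rests on the titles.

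Arrays were scaled (factors 0.869 to 1.20), floored and logged. A model of 4 group means was fitted to the 208 names in limma 3.58.1 (R 4.3.3; 8 residual and 1.85 prior degrees of freedom), with calls at an adjusted p (Benjamini-Hochberg) under 0.05. The fit was tested on simulated data. At-least folds compare the bright group's mean with the floor or, where higher, each array's lowest detected signal. Python 3.11.15, pandas 2.3.3, numpy 2.4.6, scipy 1.17.1 and matplotlib 3.10.9 gave the rest. Replicates are called biological by the labels, and 3 arrays per group limit precision. The members and lists were chosen with earlier results of these data known. The text names the 5 members, their let-7 partners, at most 4 of each other list and the 3 most similar microRNAs per member. Alternatives covered scaling, floor, filter, weights, the replicate block, the samples fitted, the series matrix and left-out arrays.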

Additional observations from a re-analysis of the deposited data

Results flagged for a closer look

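The change between lines differed between vehicle and metformin for all 5 members and miR-125a-3p, by the interaction term of the fit (limma, adjusted over 208 microRNAs), as it did for 76.4% of all microRNAs tested. It also passed for all 6 tested let-7 microRNAs, among them let-7b (4.39) and let-7c (3.55). Of these, let-7a, let-7f, let-7g and let-7i entered the test only through control shRNA cells with vehicle. Their passes were set by the filter and the floor. miR-10b* was detected only in control shRNA cells with metformin, so its fitted value of -2.17 was set likewise and is given without a test. The signs rest on the titles of the metformin groups. On the log2 scale the interaction was 4.29 for miR-125b, 3.73 for miR-100, 1.31 for miR-99b and -1.52 for miR-125a-3p (adjusted p = 0.000533). miR-100 and miR-99b were detected on all 12 arrays, and every Dicer shRNA array lay below every control shRNA array with vehicle and above every one with metformin. The values for miR-99a (1.99) and miR-125a-5p (1.45) are set by the floor, because neither was detected on a metformin array. The value for miR-125a-3p was 0.0133 (adjusted p = 0.961) after scaling to viral probes.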

How the results depend on the processing

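The number of members called with vehicle, 5 in the main analysis, was 3 after quantile normalization, 3 without a filter on dim names and 2 among names detected on all 12 arrays, where only 2 members are tested. That last filter also gave 2 for metformin in control shRNA cells and 2 for the interaction. For metformin in Dicer shRNA cells (4 in the main analysis) it was 2 after quantile normalization, after viral scaling, without a filter, with names on all 12 arrays, with only the groups compared and with the series matrix, and 2 to 4 over the fits that each dropped an array (2 when replicate 2 of Dicer shRNA with vehicle was dropped). For the average over slides (5) it was 2 after median scaling, 2 after viral scaling, 3 with the offset of 16, 2 without a filter, 1 with names on all 12 arrays and 3 with the series matrix. The cause was not tested, except that the all-array filter leaves fewer members.

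Values that turned in sign were those of miR-99b averaged over slides (-0.141 after median and -0.165 after viral scaling) and for metformin in Dicer shRNA cells (0.0633 with the series matrix), of let-7c averaged over slides (0.0273 with the floor halved), and of miR-125b against miR-125a-5p on the same array (-0.469 with the offset). For miR-125a-3p they were -0.258 with vehicle, 0.0133 for the interaction and -0.252 averaged, after viral scaling, and -0.228 averaged after median scaling. The cause was not tested.

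With the replicate block the members called numbered 5 with vehicle, 3 under metformin, 5 and 4 for metformin in control and Dicer shRNA cells, 5 for the interaction and 5 averaged. Whether the replicate numbers pair the samples cannot be told from these arrays, and the main fit did not pair them. Of 12 same-number pairs 7 correlated over 0.1 (r -0.24 to 0.69). In 5 of the 12 pairs the first sample correlated better with its own number than with the other numbers of the compared group.

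Over all names, calls under metformin (81) were 129 after median scaling, 126 with array weights, 52 after viral scaling and 44 of 98 names on all 12 arrays. For metformin in Dicer shRNA cells (51) they were 82 with array weights, 24 without a filter, 28 of 98, 19 with only the groups compared and 32 without replicate 3 of Dicer shRNA with metformin. The 98 names gave 64 (main 124) with vehicle, 86 for metformin in control shRNA cells, 72 (159) for the interaction and 27 (106) averaged, the last 66 without a filter. Scaling to the 75th percentile over all 851 human names was not run, because it fell on undetected names. The floor limits every value of miR-99a, miR-125a-5p and miR-125b in groups where arrays did not detect them.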

Other observations

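The miR-10 family, which has a sequence close to that of miR-99/100 but the seed ACCCUGU for miR-10a, was seen through 1 of its 4 names. miR-10a and miR-10b were not detected on any array. miR-10b* gave 16.1, 12.9 and 12.03 in control shRNA cells with metformin (13.7 ± 2.15, SD, n = 3) and was not detected in the other 3 groups. It was therefore tested only through the group in which it was high, and is at least 4.51-fold lower in Dicer shRNA cells under metformin as a description, with no test.

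let-7b, a let-7 microRNA outside the 3 clusters, was among the closest matches to miR-125b. It gave 287, 313 and 394 in control shRNA cells with vehicle and 77.2, 95.8 and 123.3 in Dicer shRNA cells with vehicle. With metformin it was detected on 2 of 3 control shRNA arrays, at 4.34 and 13.4, and gave 33.1, 38.5 and 32.6 in Dicer shRNA cells. let-7d was detected on 1 array, at 4.60, and miR-98 on none. Of the 6 let-7 microRNAs tested 6 were lower on the metformin arrays of control shRNA cells (median -4.07), beside 40.4% of all microRNAs tested, and 2 in Dicer shRNA cells, beside 18.3%. Of these 6, let-7a, let-7f, let-7g and let-7i entered the test only through control shRNA cells with vehicle, where they were high.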
